A study of Mus musculus with 3 samples.

Results

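A set of 10 genes of canonical Wnt signaling was described in mouse bone marrow nucleated cells (BMNCs): Lrp6, Lrp5, Atp6ap2, Dvl2, Axin1, Apc, Csnk1a1, Gsk3b, Ctnnb1 and Ppm1b. They were chosen by name, 10 of the 56980 genes listed in the data, and all 10 were detected in all 3 libraries. Each library held BMNCs of 3 male C57BL/6 mice pooled at day 14: mice without irradiation (Control), mice that received 6 Gy of γ-irradiation (IR), and mice given the same dose that also had cannabidiol injected 4 times, each time at 50 mg/kg (IR+CBD). The sample label of the last group names only the CBD treatment, and its irradiation and doses come from the study's methods, as does the sex of the mice, and their exact age was not stated in the sources used here. CBD was dissolved in soybean oil with DMSO. The study's text describes the irradiated mice set against the CBD mice as given this solvent alone, and whether the Control mice received it was not stated in the sources used here. Lin−Kit+, Lin−Kit− and Lin+ cells had been sorted and remixed at 5:4:1 before loading, so any level over all cells refers to this mix. The comparisons asked how acute irradiation, and CBD given around it, moved the Wnt receptor complex and the machinery that degrades β-catenin.

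In canonical Wnt signaling, a Wnt protein joins a Frizzled receptor with the coreceptor Lrp5 or Lrp6. Without Wnt, the scaffolds Axin1 and Apc hold β-catenin, the product of Ctnnb1, so that the kinases Csnk1a1 and Gsk3b phosphorylate it for degradation. With Wnt, Dvl2 and Axin1 move to the receptor at the membrane and β-catenin enters the nucleus, where it works with the Tcf and Lef factors. Atp6ap2, also known as the prorenin receptor, links the coreceptor to the proton pump, and Ppm1b is a serine and threonine phosphatase. In hematopoiesis, the dose of Wnt signaling is known to affect stem cell self-renewal and lymphoid development.

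Molecules were counted by their unique molecular identifiers (UMIs), and the UMIs of a gene, summed over the cells of a library, are given per 1000000 UMIs (CPM). With 1 library per group there was no test between groups. Intervals are 95% intervals that cover counting error only, and the spread between mice could not be measured. Control, IR and IR+CBD kept 10674, 10345 and 10273 cells, with medians of 12479.5, 14211 and 12502 UMIs per cell. Libraries shared 26 to 34 barcodes of kept cells per pair. Cells were grouped by raw UMIs of marker genes: at least 5 of Mpo (myeloid progenitors), 2 of Klf1 (erythroid cells), 2 of Cd79a (B lineage), 5 of Retnlg (neutrophils), 3 of Siglech (plasmacytoid dendritic cells), and at least 1 each of Cd34 and Adgrl4 (stem and progenitor cells). The Cd34-Adgrl4 gate was not a pure stem cell gate. Of its cells, 72.3%, 89.2% and 85.9% also met another gate (values in this order are those of Control, IR and IR+CBD), and it held 2812 to 3543 CPM of Mpo. Its own gene Adgrl4 stood at 203 CPM over all Control cells and at 84.5 and 104 CPM in IR and IR+CBD and the gate held 3116, 1952 and 1970 cells. The part that the Adgrl4 level had in the values of this gate was not tested. The summed level of 10 stem and multipotent progenitor markers was 507, 364 and 417 CPM in it, against 320, 206 and 216 CPM in all cells, and 9 of the 10 were higher than in all cells in every library. Stromal markers summed to at most 0.701 CPM in it, and 8 endothelial markers to 122 to 125 CPM. The Siglech gate held only 273, 46 and 79 cells, and in IR its summed neutrophil markers reached 17723 CPM against 5040 in Control and 5306 in IR+CBD, so its values rest on few and mixed cells.

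Promoter windows of RefSeq, which run from 250 bases before a gene's start to 50 after it on GRCm38.p6, were matched for 5 of the 10 genes (Atp6ap2, Ctnnb1, Dvl2, Gsk3b and Ppm1b), with 8 windows in all. They were searched on both strands for TGACGTCA, the cyclic AMP response element that ATF and CREB factors such as Atf2 are known to bind, for its shorter forms TGACGT and TGACG, which the longer forms contain, and for ATCAAAG and TTCAAAG, letters of the kind that Tcf and Lef factors are known to bind. The windows of Atp6ap2, Gsk3b and Ppm1b are shown because these members stood highest in IR+CBD over IR among all cells, and for Ppm1b, which has several, the first by position. Capitals mark a match. TGACGT is on the strand shown, and CTTTGAT is ATCAAAG read on the other strand.
Atp6ap2, chrX:12587509-12587808, + strand: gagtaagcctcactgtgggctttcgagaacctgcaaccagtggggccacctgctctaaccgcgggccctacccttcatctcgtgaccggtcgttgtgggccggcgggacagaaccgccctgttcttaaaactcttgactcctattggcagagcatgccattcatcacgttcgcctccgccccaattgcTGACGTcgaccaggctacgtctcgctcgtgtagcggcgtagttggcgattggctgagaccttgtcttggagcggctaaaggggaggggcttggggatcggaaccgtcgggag
Gsk3b, chr16:38088751-38089050, + strand: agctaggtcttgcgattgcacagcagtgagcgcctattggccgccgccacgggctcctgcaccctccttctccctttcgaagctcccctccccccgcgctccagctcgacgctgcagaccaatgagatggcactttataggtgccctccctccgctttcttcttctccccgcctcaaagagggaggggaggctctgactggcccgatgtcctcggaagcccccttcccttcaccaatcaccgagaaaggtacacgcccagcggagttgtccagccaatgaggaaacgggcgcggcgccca
Ppm1b, chr17:84956491-84956790, + strand: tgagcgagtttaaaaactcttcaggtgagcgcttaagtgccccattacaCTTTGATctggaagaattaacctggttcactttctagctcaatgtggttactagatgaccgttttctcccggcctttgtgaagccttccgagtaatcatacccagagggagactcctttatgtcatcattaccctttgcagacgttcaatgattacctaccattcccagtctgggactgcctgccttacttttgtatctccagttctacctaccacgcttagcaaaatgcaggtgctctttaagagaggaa
The share of all 32851 windows that held each motif was 1.79% for TGACGTCA, 7.51% for TGACGT, 20.8% for TGACG, 3.73% for ATCAAAG and 5.14% for TTCAAAG. Of the 8 windows, 4 held a match. The share of all windows with any of these motifs was not determined, so this count is not read as a trait of the members. The windows of Ctnnb1 overlap each other. Besides the matches in capitals, TGACG was in 1 window of Ctnnb1 and in another window of Ppm1b. The windows of Gsk3b and Dvl2 held none of these letters. A match, or the lack of one, describes these letters in this window only.

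The levels of Lrp6 and Lrp5 differed more between kinds of cells than between libraries. Lrp6 was lowest in the Retnlg gate, at 14.8, 12.5 and 11.8 CPM in Control, IR and IR+CBD. It was next lowest in the Mpo gate, at 28.7, 26.5 and 27.0 CPM. The Cd34-Adgrl4 gate gave 34.1, 29.6 and 31.3 CPM, the Klf1 gate 38.6, 32.3 and 35.4 CPM, and the Cd79a gate 37.7, 35.1 and 39.7 CPM. The Siglech gate gave 41.5, 32.5 and 40.5 CPM, from 132, 20 and 34 UMIs. The ranges over libraries of these last 4 gates overlapped from one to the next, while the Mpo and the Retnlg gate stood apart below them. In cells that met 1 gate only, the order changed at the top: Lrp6 reached 49.7, 47.5 and 43.6 CPM in the Cd34-Adgrl4 cells, above the erythroid cells at 39.9, 32.2 and 35.9 CPM, and above the B lineage cells at 40.5, 39.0 and 43.9 CPM in Control and IR but not in IR+CBD. Retnlg cells that met no other gate held 5.94, 4.00 and 4.63 CPM of Lrp6, below the level of the whole Retnlg gate in each library. These single-gate values were computed after the overlap of the gates had been seen. The level in the Siglech gate was 2.80 times that in the Retnlg gate, as the median of the 3 libraries, and 9.7 times when cells in 2 or more gates were removed. After that removal the Siglech cells held 94, 13 and 23 UMIs of Lrp6 and the Retnlg cells 47, 37 and 42.

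**Figure D1:**
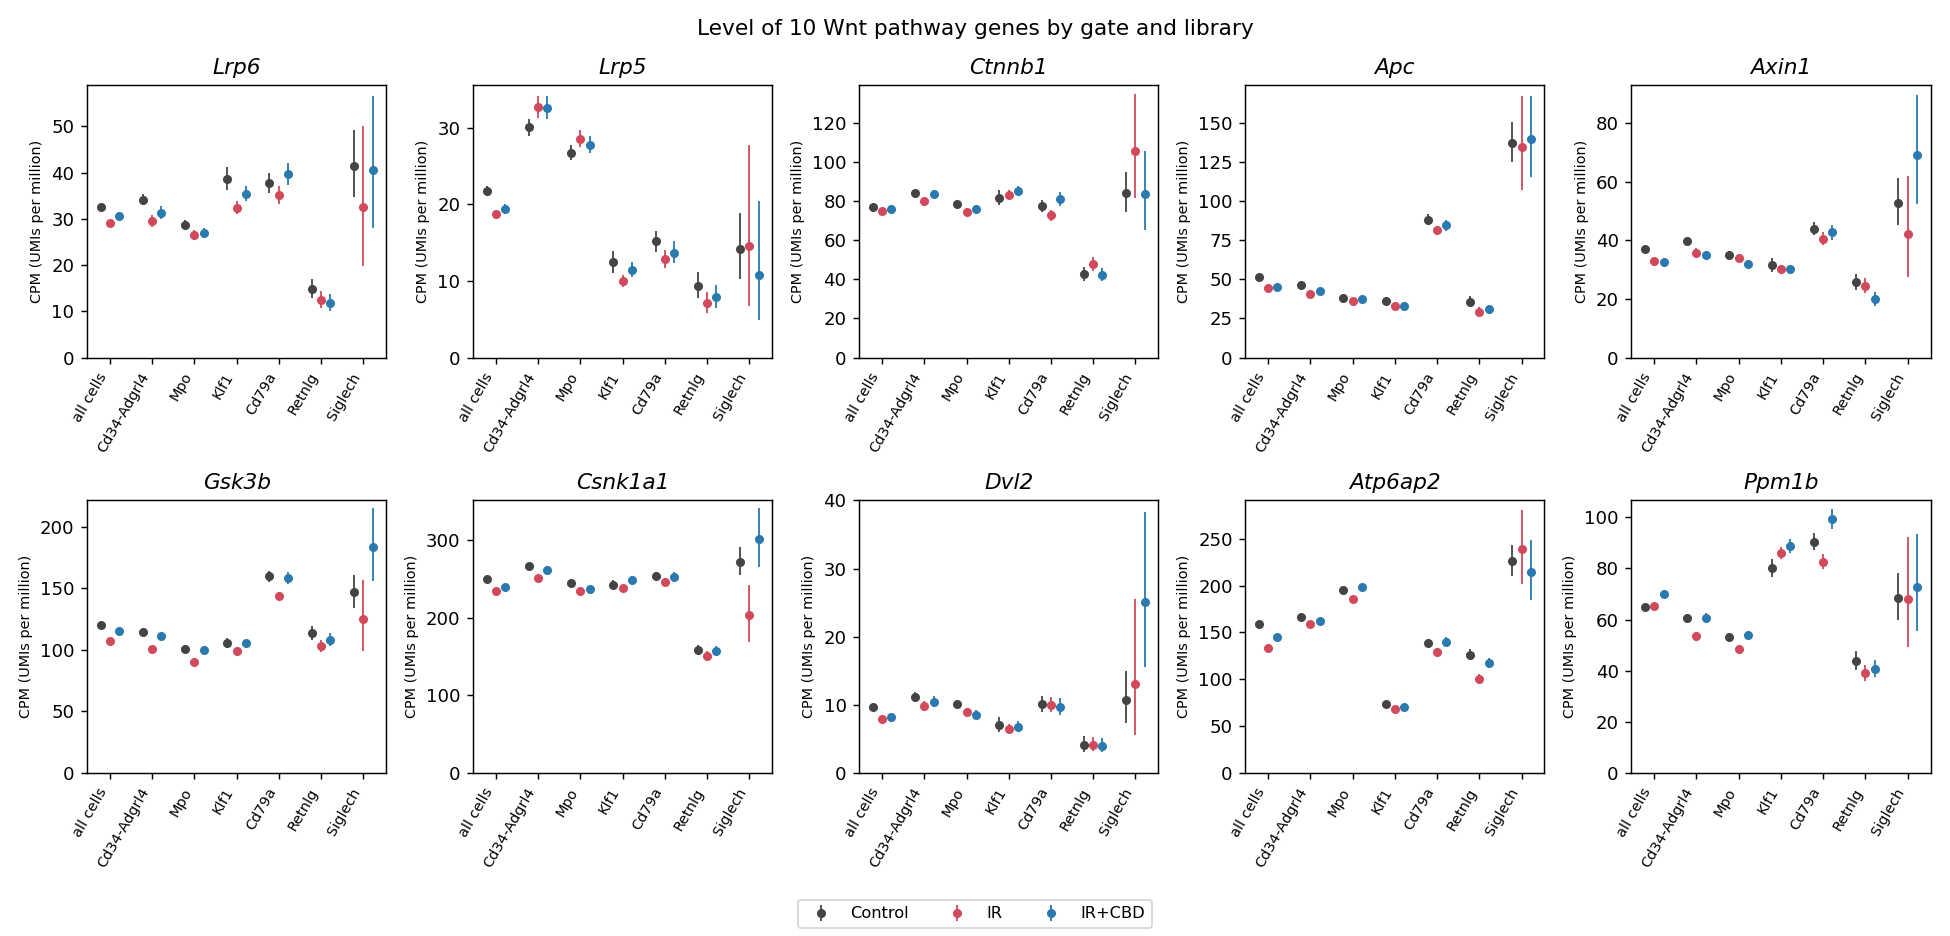
Levels of the 10 genes in CPM (vertical axes, from 0) for all kept cells and the 6 gates (horizontal axes), with 1 point per library and bars for the 95% Poisson interval. Lrp5 is highest in the Cd34-Adgrl4 and Mpo gates in every library, Lrp6 is lowest in the Retnlg gate, and the Siglech gate has the widest intervals.

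Lrp5, the close relative of Lrp6, followed another order. It was highest in the Cd34-Adgrl4 gate, at 30.0, 32.7 and 32.6 CPM, and next in the Mpo gate, at 26.7, 28.6 and 27.8 CPM. The Klf1 gate held only 12.4, 9.94 and 11.4 CPM, the Cd79a gate 15.2, 12.8 and 13.7 CPM, and the Retnlg gate 9.34, 7.08 and 7.87 CPM. Except for the Siglech and Cd79a gates, whose ranges overlapped, neighbouring gates in this order did not overlap over the libraries. In cells of 1 gate only, Lrp5 was between 1.10 and 2.40 CPM in Retnlg cells and at 34.9, 40.5 and 34.2 CPM in Cd34-Adgrl4 cells, and the ratio of the highest to the lowest gate moved from 4.14 to 22. That ratio rests on only 19, 17 and 10 UMIs of Lrp5 in those Retnlg cells. Within Lrp5, the Klf1 and Cd79a gates thus stood below the Cd34-Adgrl4 and Mpo gates, which was not the order of Lrp6.

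The shares of cells with at least 1 UMI were compared at equal depth. After each cell was thinned to 2000 UMIs, 6.64%, 6.00% and 6.33% of cells held Lrp6, against 35.4%, 33.1% and 31.6% without thinning. In the Klf1 gate the thinned share was 6.48%, 6.64% and 7.89% for Lrp6 and 1.19%, 2.35% and 2.63% for Lrp5. At 5000 UMIs per cell, with 0, 5 and 3 cells left out, the Klf1 shares were 17.9%, 14.6% and 14.6% for Lrp6 and 5.97%, 5.14% and 4.67% for Lrp5, so the order of the libraries turned, and no order is read from these shares. In the Cd34-Adgrl4 gate it was 6.68%, 5.64% and 5.89% for Lrp6 and 5.78%, 6.10% and 6.40% for Lrp5. Among the gates, the lowest shares of Lrp6 were those of the Retnlg gate, at 1.81%, 0.842% and 1.75%, where unthinned cells had medians of 8769.5, 9707.5 and 8823 UMIs. Thinning left out 401, 296 and 452 cells that held fewer UMIs. No gate is known to lack Lrp6, so the part that free RNA in the droplets had in these shares was not tested.

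The genes of the destruction complex differed in where they were highest. Apc was highest in the Siglech gate at 137, 135 and 139 CPM and next in the Cd79a gate at 88.1, 81.3 and 84.5 CPM, while the other 4 gates held 29.4 to 46.4 CPM. Gsk3b was at 160, 143 and 158 CPM in the Cd79a gate and lowest in the Mpo gate, at 100.5, 90.1 and 99.8 CPM. Csnk1a1 held 234 to 267 CPM and Ctnnb1 72.7 to 85.0 CPM over the Cd34-Adgrl4, Mpo, Klf1 and Cd79a gates, and both were lowest in the Retnlg gate. In cells that met 1 gate only these ranges were wider: Csnk1a1 was at 219, 211 and 213 CPM in Mpo cells but at 328, 313 and 318 CPM in Cd34-Adgrl4 cells, and Ctnnb1 at 69.2, 67.8 and 66.9 CPM against 91.4, 102 and 101 CPM. Axin1 ranged from 19.9 to 25.7 CPM in the Retnlg gate to 52.8, 42.2 and 69.1 CPM in the Siglech gate, which overlapped the 40.5 to 44.0 CPM of the Cd79a gate. Cd34-Adgrl4 cells of 1 gate only held more Apc than the whole gate, at 72.5, 63.9 and 63.5 CPM. Their Gsk3b was at 168, 159 and 155 CPM, beside 181, 167 and 183 CPM in Cd79a cells of 1 gate only. Axin1 was at 52.3, 41.0 and 40.2 CPM in the former and at 44.6, 42.2 and 46.4 CPM in the latter. Dvl2, which passes the signal from Frizzled to the complex, was scarce everywhere outside the Siglech gate, with 3.97 to 11.1 CPM.

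Atp6ap2 and Ppm1b had patterns of their own. Atp6ap2 was highest in the Siglech gate at 226, 239 and 215 CPM, next in the Mpo gate at 195, 186 and 198 CPM and lowest in the Klf1 gate at 73.7, 68.1 and 70.8 CPM, and none of its neighbouring gates overlapped over the libraries. In cells that met 1 gate only, some did: Siglech cells were at 249, 290 and 201 CPM and Mpo cells at 247, 234 and 249.5 CPM, and Cd34-Adgrl4 cells, at 108, 91.7 and 92.0 CPM, overlapped Retnlg cells, at 99.7, 89.7 and 107 CPM. Ppm1b was highest in the Cd79a gate, at 90.5, 82.6 and 99.4 CPM, and in the Klf1 gate, at 80.1, 86.1 and 88.7 CPM, and the 2 ranges overlapped.

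Over the 18 values that 6 gates in 3 libraries gave, the genes most like Lrp6 by the Pearson correlation of log2(CPM + 1) were Zfp266 (r = 0.989), Ylpm1 (r = 0.983), Ccny (r = 0.982), Ppp4r3a (r = 0.981) and Ube2k (r = 0.980), out of 13303 genes with at least 200 UMIs in each library. The values share libraries and, where gates overlap, cells, and by rank correlation none of the 5 was among the first 5. Of the other members, Csnk1a1 came closest at r = 0.927, Ctnnb1 followed at r = 0.903, and Lrp5 stood at r = 0.359. Csnk1a1 and Ctnnb1 ranked only 342 and 672 among these genes. By rank correlation the order of the members changed, with Ppm1b at 0.837, Csnk1a1 at 0.773 and Ctnnb1 at 0.655.

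Next, IR was compared with Control. Over all cells, Lrp6 was at 32.5 CPM in Control (6326 UMIs) and 29.0 CPM in IR (5873 UMIs), a ratio of 0.894 (interval 0.863 to 0.926). Of the 10 genes, 9 were lower in IR and the intervals of those 9 left out 1. Such intervals narrow as UMIs rise. The share of all genes with intervals that left out 1, over all cells or within gates, was not determined. The lowest ratios of the 10 were those of Dvl2, at 0.825 (0.771 to 0.882), Atp6ap2, at 0.839 (0.826 to 0.853), Lrp5, at 0.860 (0.823 to 0.899), and Apc, at 0.869 (0.844 to 0.894). Ctnnb1 was the closest of the 9 to 1, at 77.02 and 74.97 CPM, a ratio of 0.973 (0.952 to 0.996). Ppm1b was at 64.9 CPM in Control and 65.4 CPM in IR, a ratio of 1.01 (0.984 to 1.03).

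These differences were small. A size limit was set at 25% higher or 20% lower, for genes with at least 50 UMIs over both libraries. None of the 10 genes passed it, while 10.9% of 20226 genes were past it on the higher and 21.2% on the lower side. The median log2 ratio of the members was -0.17 and that of all genes -0.05, and 58.4% of all genes were below 1. When cells in 2 or more gates were removed, 1 member, Lrp5, passed the limit at 0.758. The share of all genes past the limit among those cells was not determined.

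**Figure D2:**
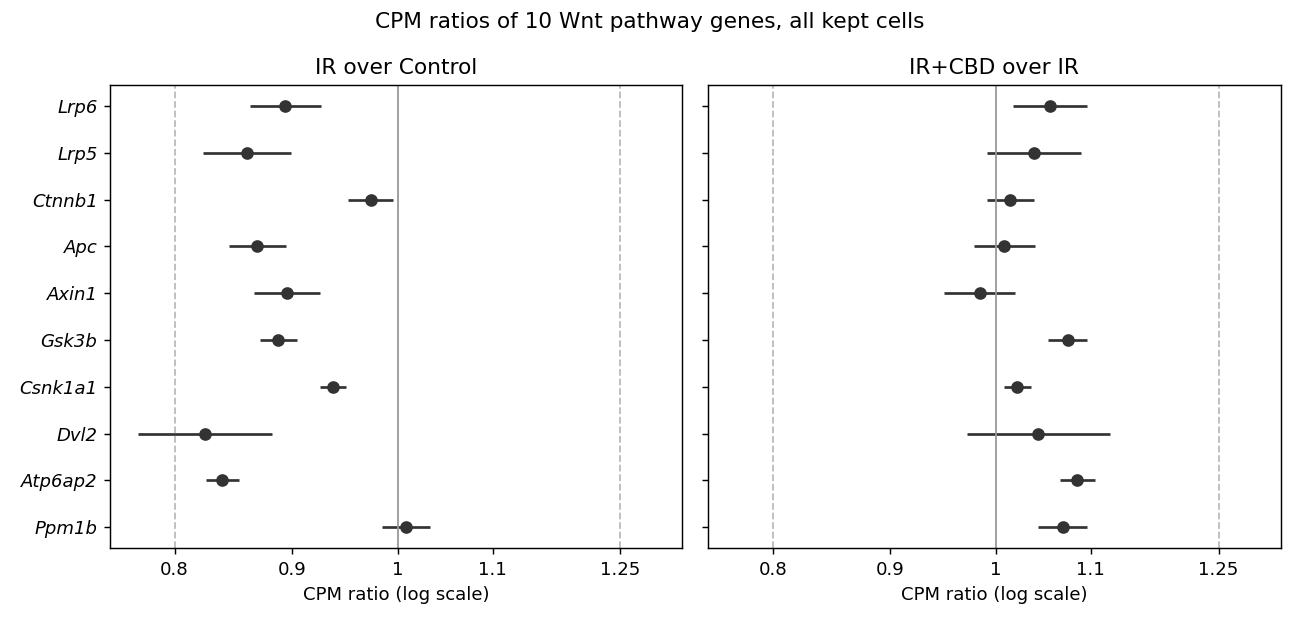
CPM ratios of the 10 genes over all kept cells (horizontal axes, log scale) for IR over Control and IR+CBD over IR, with 95% counting intervals; the solid line marks 1 and the dashed lines the size limit in each direction. All points lie between the dashed lines, and 9 of the 10 are below 1 on the left while 9 of the 10 are above 1 on the right.

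The mix of cells also differed between the libraries. The Klf1 gate held 5.49% of Control and 14.0% of IR cells, and the Cd34-Adgrl4 gate 29.2% of Control and 18.9% of IR cells. When each library was weighted to the mix of cells in Control, Lrp6 stayed at 0.907, Lrp5 moved from 0.860 to 1.02 and Ppm1b from 1.01 to 0.937. Atp6ap2 moved to 0.921 and Apc to 0.934.

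Within gates, Lrp6 was below 1 in IR over Control in 6 of 6 gates. The ratio was 0.868 (0.820 to 0.918) in the Cd34-Adgrl4 gate, 0.837 (0.774 to 0.905) in the Klf1 gate and 0.926 (0.879 to 0.976) in the Mpo gate. It was 0.932 (0.860 to 1.01) in the Cd79a gate, 0.842 (0.685 to 1.04) in the Retnlg gate and 0.783 (0.463 to 1.26) in the Siglech gate, where the intervals held 1. In Mpo cells that met no other gate the order turned for Lrp6, with 21.4 CPM in Control and 23.5 CPM in IR, as it did for Axin1, with 29.5 and 30.8 CPM, and Apc, with 29.2 and 31.5 CPM. Axin1, Apc, Csnk1a1 and Gsk3b were below 1 in 6 of 6 gates as well, but not under every alternative. Axin1 stood at 15.04 CPM in Control and 17.5 CPM in IR in Retnlg cells that met no other gate and reached 1.01 in the Cd79a gate as the mean of each cell's CPM. With gates set per 10000 UMIs of a cell, Csnk1a1 reached 1.04 and Gsk3b 1.03 in the Klf1 gate. Gsk3b was lower in IR with an interval below 1 in 5 gates, at ratios from 0.880 to 0.938, and at 0.852 (0.661 to 1.09) in the Siglech gate. Apc did so in 5 gates as well, from 0.822 in the Retnlg gate to 0.951 in the Mpo gate, and in Siglech cells that met no other gate it turned as well.

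Atp6ap2 was lower in IR with an interval below 1 in 5 gates, from 0.798 in the Retnlg gate to 0.952 in the Cd34-Adgrl4 and Mpo gates, and at 1.06 (0.877 to 1.26) in the Siglech gate. Under some alternatives it passed 1 in 3 of these 5, reaching 1.04 in the Cd34-Adgrl4 and 1.01 in the Mpo gate, and in Cd79a cells that met no other gate it was at 126 CPM in Control and 129 CPM in IR. Csnk1a1 was closer to 1, at 0.939 (0.921 to 0.957) in the Cd34-Adgrl4 gate and 0.984 (0.955 to 1.01) in the Klf1 gate. Dvl2 was at 0.881 (0.798 to 0.972) in the Cd34-Adgrl4 gate and 0.889 (0.812 to 0.973) in the Mpo gate, and its intervals held 1 in the other 4. Ctnnb1, the gene of β-catenin itself, was at 0.950 (0.917 to 0.983) in the Cd34-Adgrl4 gate, but at 1.02 (0.967 to 1.07) in the Klf1 gate and 1.11 (0.995 to 1.246) in the Retnlg gate. The direction of Ctnnb1 turned in both the first and the last of these gates: in Cd34-Adgrl4 cells that met no other gate it was at 91.4 CPM in Control and 102 CPM in IR, in those with under 5 Mpo UMIs the ratio was 1.10 (0.9995 to 1.21), and in Retnlg cells of 1 gate only it was at 29.2 and 28.02 CPM. The Retnlg gate also held summed erythroid markers of 851 CPM in Control but 5204 CPM in IR and 4086 CPM in IR+CBD, and their part in its ratios was not tested.

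Lrp5 went both ways. In the Cd34-Adgrl4 gate it stood at 30.0 CPM in Control and 32.7 CPM in IR, a ratio of 1.09 (1.03 to 1.15), and in the Mpo gate at 26.7 and 28.6 CPM, a ratio of 1.07 (1.01 to 1.13). It was at 0.799 (0.695 to 0.919) in the Klf1 gate, 0.847 (0.744 to 0.965) in the Cd79a gate and 0.758 (0.578 to 0.991) in the Retnlg gate. Under the alternatives tried, the Klf1 value ran from 0.755 to 0.997. The difference between gates was not tested. Ppm1b was above 1 in erythroid cells, at 1.08 (1.02 to 1.13) in the Klf1 gate and 0.885 to 0.914 in the Cd34-Adgrl4, Retnlg, Cd79a and Mpo gates.

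Members past the size limit in IR over Control were few within gates. In the Klf1 gate only Lrp5 was, on the lower side, as were 14.6% of genes there, and 8.47% of genes were past it on the higher side. At its highest under the alternatives, 0.997, Lrp5 was not past the limit there. In the Retnlg gate Lrp5 and Atp6ap2, at 0.798 (0.743 to 0.856), were lower, as were 12.7% of genes, with 12% higher. In the Siglech gate, 9 members had 50 UMIs or more and 3 were lower and 1 was higher, against 25.7% and 15.1% of genes. No member passed in the Cd34-Adgrl4 gate, where 8.02% of genes were higher and 18.5% lower, in the Mpo gate, with 8.89% and 13%, or in the Cd79a gate, with 11.3% and 13.5%. In the Cd34-Adgrl4 gate this did not hold for its cells with under 5 Mpo UMIs, where Axin1, at 0.776 (0.669 to 0.897), and Dvl2, at 0.757 (0.550 to 1.03), were past the limit on the lower side. The interval of Dvl2 held 1, and the share of all genes past the limit in these cells was not determined.

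In the comparison of IR+CBD with IR, Lrp6 stood at 30.7 CPM in IR+CBD (5317 UMIs), a ratio of 1.06 (1.02 to 1.10), and it remained below Control at 0.944 (0.910 to 0.979). Of the 10 genes, 9 were above 1, and for 5 the interval left out 1: Atp6ap2 at 1.09 (1.07 to 1.10), Gsk3b at 1.07 (1.05 to 1.10), Ppm1b at 1.07 (1.04 to 1.10), Lrp6, and Csnk1a1 at 1.02 (1.01 to 1.04). Here too, the share of all genes with such intervals was not determined. Axin1 was at 0.984 (0.950 to 1.02). Gsk3b thus stood at 120.4, 106.8 and 114.8 CPM in Control, IR and IR+CBD, and Atp6ap2 at 159, 133 and 145 CPM, with IR lowest and IR+CBD in between. Apc showed little of this, at 51.2, 44.5 and 44.9 CPM. IR is part of both comparisons, so a low value in that 1 library lowers the first ratio and raises the second.

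None of the 10 passed the size limit, while 8.89% of 19867 genes were past it on the higher and 7.99% on the lower side. The median log2 ratio of the members was 0.06 and that of all genes 0.0020, and 50.6% of all genes were above 1.

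Across gates, Gsk3b, Csnk1a1, Ppm1b and Apc were above 1 in 6 of 6 gates in IR+CBD over IR. For Gsk3b the interval lay above 1 in 5 gates, from 1.06 (1.02 to 1.10) in the Klf1 gate to 1.47 (1.11 to 1.96) in the Siglech gate. It was at 1.10 (1.06 to 1.14) in the Cd34-Adgrl4 gate, but its intervals held 1 in the narrower sets of cells described below. In cells that met 1 gate only, Csnk1a1 was higher in IR+CBD in 6 of 6 gates, which did not hold for the other 3: Gsk3b, for example, was at 159 CPM in IR and 155 CPM in IR+CBD in the Cd34-Adgrl4 cells. Under another alternative, however, Csnk1a1 fell to 0.989 in the Mpo gate. Ppm1b was at 1.13 (1.08 to 1.19) in the Cd34-Adgrl4 gate, 1.11 (1.07 to 1.16) in the Mpo gate and 1.20 (1.14 to 1.27) in the Cd79a gate. For Apc no interval left out 1 in any gate. Atp6ap2 was at 1.17 (1.09 to 1.251) in the Retnlg gate, 1.08 (1.04 to 1.13) in the Cd79a gate and 1.07 (1.04 to 1.09) in the Mpo gate, but at 1.02 (0.992 to 1.05) in the Cd34-Adgrl4 gate. Lrp6 was at 1.13 (1.04 to 1.23) in the Cd79a gate, 1.10 (1.03 to 1.17) in the Klf1 gate, 1.06 (0.992 to 1.13) in the Cd34-Adgrl4 gate, 1.02 (0.960 to 1.08) in the Mpo gate and 0.950 (0.767 to 1.17) in the Retnlg gate. In the Cd34-Adgrl4 and Mpo gates, Lrp5 was at 0.997 (0.936 to 1.06) and 0.972 (0.919 to 1.03), and in the Klf1 gate it was at 1.15 (1.02 to 1.29). Ctnnb1 was at 1.11 (1.05 to 1.18) in the Cd79a gate and 0.888 (0.795 to 0.990) in the Retnlg gate. In the Siglech gate 3 of 8 members were past the size limit on the higher and 1 on the lower side, as were 24.6% and 13.6% of genes. No member passed in the Cd34-Adgrl4 gate, where 9.5% of genes were higher and 6.43% lower, in the Mpo gate, with 9.57% and 6.62%, the Klf1 gate, with 4.19% and 10.6%, the Cd79a gate, with 10.3% and 8.24%, or the Retnlg gate, with 6.8% and 10.7%. Dvl2 did pass in Cd34-Adgrl4 cells that met no other gate, at 9.13 CPM in IR and 15.4 CPM in IR+CBD, and in those with under 5 Mpo UMIs, at 1.59 (1.12 to 2.26). The share of all genes past the limit in these narrower sets of cells was not determined.

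**Figure D3:**
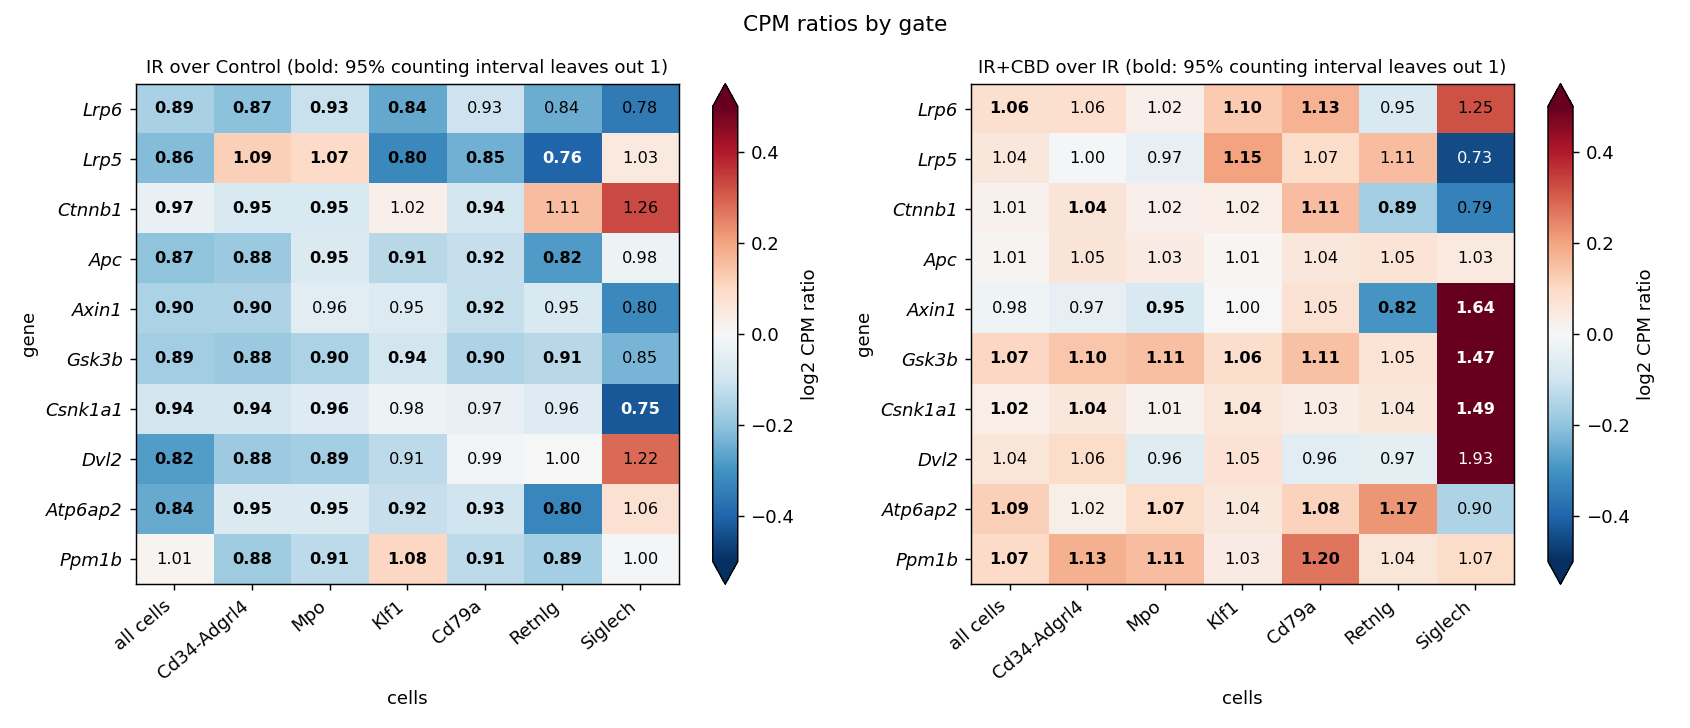
CPM ratios of the 10 genes (rows) in all cells and in each gate (columns) for IR over Control and IR+CBD over IR; colour gives the log2 ratio and bold print marks ratios whose 95% counting interval leaves out 1. In IR over Control the row of Lrp6 is below 1 throughout and that of Lrp5 is above 1 in the Cd34-Adgrl4 and Mpo gates, and in IR+CBD over IR the row of Gsk3b is above 1 throughout.

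Since the Cd34-Adgrl4 gate overlapped the Mpo gate, narrower sets of cells were examined, which were chosen after the data had been seen. Cells of the gate with under 5 Mpo UMIs numbered 967, 246 and 327, and their stem markers summed to 1435, 1455 and 1386 CPM. In them, Lrp6 was at 49.1, 45.0 and 45.2 CPM, so that IR over Control was 0.917 (0.795 to 1.06) and IR+CBD over IR was 1.00 (0.845 to 1.19). Cells with a UMI each of Hlf and Mecom, stem cell transcription factors, numbered 1050, 444 and 524, of which 45.0%, 61.7% and 56.1% were also in the Mpo gate, with 1565, 1963 and 1889 CPM of Mpo. They held Lrp6 at 43.0, 38.9 and 36.6 CPM, with ratios of 0.905 (0.817 to 1.00) and 0.941 (0.834 to 1.06). A higher Lrp6 level in IR+CBD than in IR was therefore not detectable in either set at this depth, and in the second set, as in the cells of the gate that met no other, the value was lower in IR+CBD.

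Lrp5 in IR over Control was at 1.18 (1.06 to 1.32) in the Hlf and Mecom cells and at 1.13 (0.960 to 1.32) in the cells with little Mpo, and in IR+CBD over IR at 0.863 (0.762 to 0.977) and 0.912 (0.754 to 1.10). Ppm1b was at 1.11 (1.02 to 1.22) and 1.18 (1.03 to 1.34) in IR+CBD over IR, after 0.899 (0.831 to 0.973) and 0.832 (0.744 to 0.930) in IR over Control. Axin1 was lower in IR, at 0.861 (0.779 to 0.952) and 0.776 (0.669 to 0.897), and stood in IR+CBD over IR at 0.935 (0.829 to 1.05) and 1.02 (0.856 to 1.23). Gsk3b was lower in IR as well, at 0.893 (0.845 to 0.945) and 0.926 (0.858 to 0.999). In IR+CBD over IR it stood at 1.01 (0.948 to 1.08) and 1.00 (0.916 to 1.10).

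**Figure D4:**
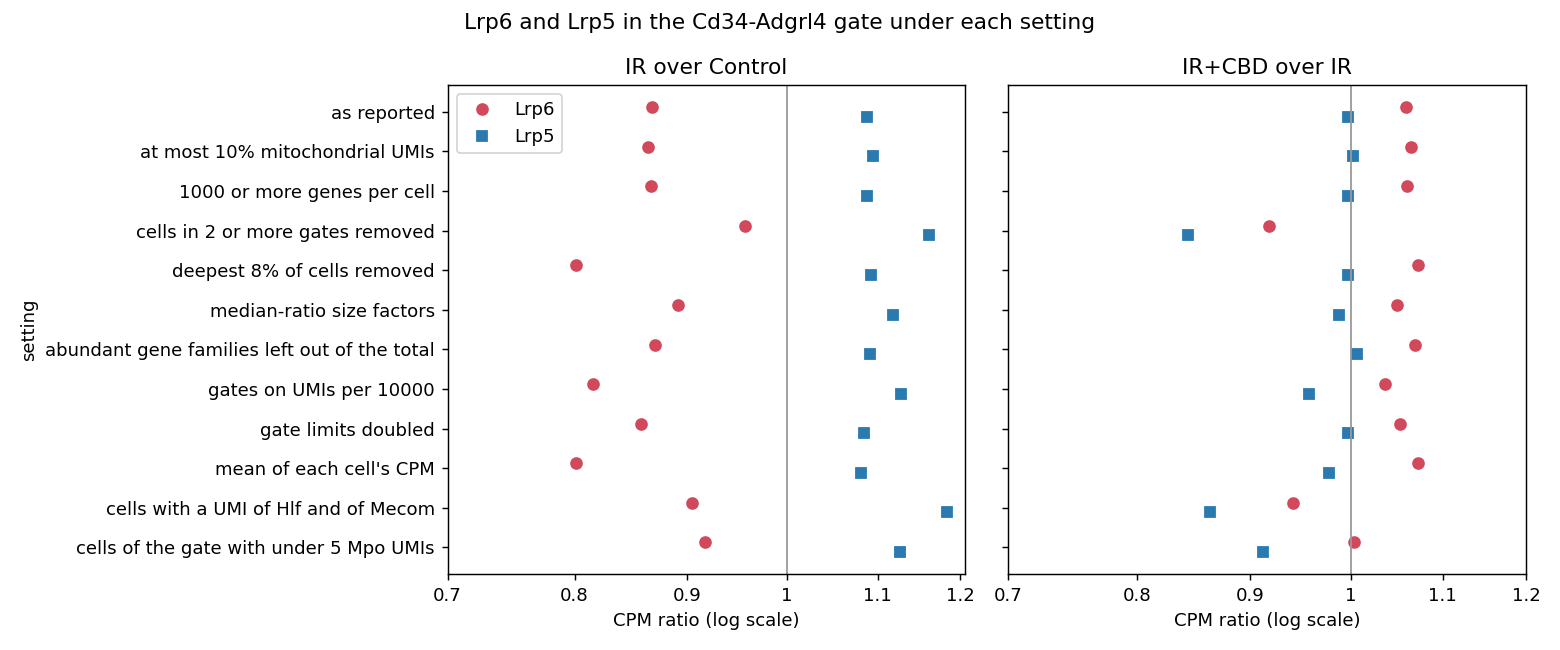
CPM ratios of Lrp6 (circles) and Lrp5 (squares) in the Cd34-Adgrl4 gate (horizontal axes, log scale) under each way of choosing and scaling the cells (rows). In IR over Control all Lrp6 values lie between 0.801 and 0.957 and all Lrp5 values between 1.08 and 1.18, while in IR+CBD over IR Lrp6 lies between 0.918 and 1.07, on both sides of 1.

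Atf2, the transcription factor that the study pairs with Lrp6, stood at 65.0, 61.8 and 65.8 CPM over all cells, so that IR over Control was 0.951 (0.928 to 0.975) and IR+CBD over IR was 1.06 (1.04 to 1.09). In the Cd34-Adgrl4 gate the ratios were 0.924 (0.888 to 0.962) and 1.09 (1.04 to 1.14). In the Hlf and Mecom cells it was at 73.6, 73.7 and 75.3 CPM, where the ratios were 1.00 (0.928 to 1.08) and 1.02 (0.937 to 1.11). In cells of the gate with under 5 Mpo UMIs the ratios of Atf2 were 1.06 (0.954 to 1.18) and 1.01 (0.896 to 1.14). Cd34-Adgrl4 cells that met no other gate held it at 81.9, 86.2 and 86.2 CPM. The lower value in IR was thus not seen in these narrower sets.

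The 10 genes belong to a list of 108 Wnt pathway genes, of which 76 had 50 UMIs or more in IR and Control together. Of these, 6 were higher and 24 lower past the size limit in IR, with a median log2 ratio of -0.18 against -0.05 for all genes, of which 10.9% were higher and 21.2% lower. Within the Mpo gate 5 of 67 were higher and 11 lower, beside 8.89% and 13% of genes, and within the Cd34-Adgrl4 gate 4 of 67 were higher and 18 lower, beside 8.02% and 18.5%. Over all cells, receptors accounted for 7 of the lower genes, of 15 counted, nuclear factors for 6 of 15, and receptor turnover genes for 3 of 3. Known Wnt targets, some of which also stand in another role, accounted for 5 of 11, with 1 higher. In the cytoplasmic machinery, to which 7 of the members belong, 3 of 27 were lower and 1 higher. The lowest was Fzd8, a Frizzled receptor, with 115 UMIs in Control and 10 in IR, a ratio of 0.0837 (0.0391 to 0.160), and it was at 0.105 (0.0373 to 0.238) within the Cd34-Adgrl4 gate. Fzd6, another Frizzled receptor, was at 0.468 (0.410 to 0.534) over all cells and 0.406 (0.331 to 0.495) in the Cd34-Adgrl4 gate, and Nkd1, an inhibitor that Wnt induces, at 0.462 (0.272 to 0.766). With the Control mix of cells these 3 moved to 0.162 for Fzd8, 0.550 for Fzd6 and 0.648 for Nkd1. The highest were Sfrp4, a secreted Wnt inhibitor, at 5.23 (4.28 to 6.42), the Wnt receptor Ryk at 1.76 (1.62 to 1.93) and the cell cycle gene Ccnd1, a known Wnt target, at 1.73 (1.66 to 1.80). Ryk was mostly in the Klf1 gate, where it was at 22.7 CPM in Control with a ratio of 0.885 (0.800 to 0.979), and it was at 1.07 with the Control mix of cells, while Sfrp4 was at 3.0 and Ccnd1 at 2.24.

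In IR+CBD over IR, 4 of 74 genes of the list were higher and 7 lower past the size limit, with a median log2 ratio of 0.03 against 0.0020 for all genes, of which 8.89% were higher and 7.99% lower. Wnt10a, a Wnt ligand, was at 1.74 with an interval above 1 and held most of its UMIs in the Cd79a gate, and Nkd1 was at 1.41 (0.792 to 2.53) and the receptor Fzd4 at 1.36 (1.09 to 1.70). The lowest were Nkd2 at 0.604 (0.372 to 0.962), Lef1, the lymphoid partner of β-catenin, at 0.714 (0.691 to 0.737), and Sfrp4 at 0.733 (0.645 to 0.832). Lef1 stood at 278, 265 and 223 CPM in the Cd79a gate, a ratio of 0.839 (0.812 to 0.867) there, and at 0.826 with the Control mix of cells. With that mix Wnt10a was at 1.78, Nkd1 at 1.15, Fzd4 at 1.28, Nkd2 at 0.693 and Sfrp4 at 0.752.

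**Figure D5:**
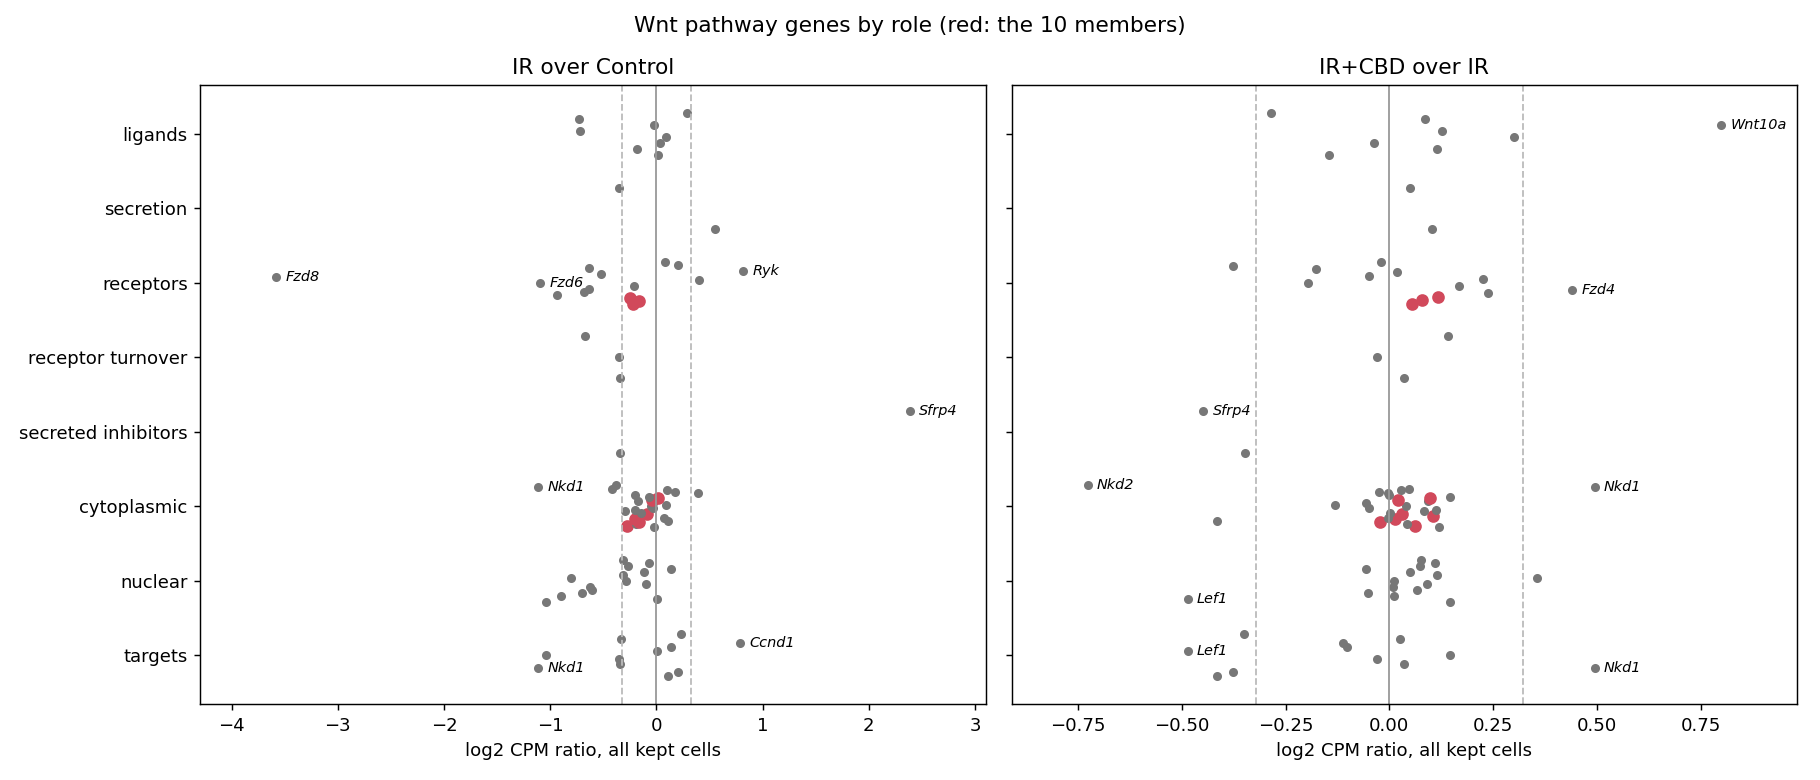
Log2 CPM ratios over all kept cells (horizontal axes) of the Wnt pathway genes with 50 UMIs or more over both libraries, by role (rows), for IR over Control and IR+CBD over IR, with the 10 members in red and dashed lines at the size limit. The members lie within the dashed lines in both panels, while Fzd8 is far to the left and Sfrp4 far to the right in IR over Control.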

How the data were processed

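For each of the 3 libraries the authors deposited raw UMI counts, not normalized, as a sparse matrix beside lists of genes and barcodes. The library kit was the 10x Genomics 3' V2 kit. According to the submitters' processing notes the genome build was GRCm39 and the counts came from Cell Ranger 4.0, whereas the headers of the deposited matrices carry version 7.0.1, whose default is to count introns as well. The deposited matrices held 199383228 (Control), 206932522 (IR) and 177806843 (IR+CBD) UMIs in 12200, 11951 and 11884 barcodes.

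The study's own filter was applied (at least 200 genes, and mitochondrial UMIs of at most 5%), and no doublet caller was run, whereas the study ran DoubletFinder. UMIs were summed per gene over all kept cells and over each gate, whose limits are given with the results, and cells can meet several gates. CPM have exact Poisson 95% intervals, ratios exact conditional binomial intervals and shares of cells exact Clopper-Pearson intervals, all for counting error only. Shares were taken after thinning each cell to 2000 UMIs, with 5000 UMIs and no thinning as alternatives. A gene counted as higher or lower at 25% above or 20% below the other library among genes with at least 50 UMIs over the 2 libraries compared. No test between groups was made, since each group was 1 library. The interval code was tested on simulated counts with known changes.

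The named genes were all 10 members, Atf2, the 3 highest and 3 lowest ratios of a list of Wnt pathway genes in each comparison, and the 5 genes most like Lrp6. Members and lists were chosen with earlier results of these data known. Promoter windows came from RefSeq on GRCm38.p6, another build than that of the counts, and were matched by gene symbol, with members on chromosome 18 left out. Values in cells that met 1 gate only, and the narrower sets of cells, were added after the data had been seen. Alternatives varied the filters, the handling of cells in several gates, the scaling, the gate limits and the mix of cells. Python 3.11.15, numpy 2.4.6, scipy 1.17.1, pandas 2.3.3 and matplotlib 3.10.9 were used.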

Additional observations from a re-analysis of the deposited data

Results flagged for a closer look

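For 4 of the genes the ratio lay above 1 in some gates and below 1 in others, with counting intervals that left out 1 on both sides. With 1 library per group, these differences between gates were not tested, and the intervals cover counting error only. The share of all genes that meet this condition was not determined, so it is not read as a trait of these genes. This condition was chosen after the values had been seen: a stricter form, which also asked for the size limit of 25% higher or 20% lower on both sides, gave 0 results. In IR over Control, Lrp5 was at 1.07 in the Mpo gate and 1.09 in the Cd34-Adgrl4 gate, but at 0.799 in the Klf1 gate, 0.847 in the Cd79a gate and 0.758 in the Retnlg gate. Its Klf1 value ran from 0.755 to 0.997 under the alternatives. Ppm1b was at 1.08 in the Klf1 gate and at 0.914, 0.912, 0.889 and 0.885 in the Mpo, Cd79a, Retnlg and Cd34-Adgrl4 gates. In IR+CBD over IR, Ctnnb1 was at 1.11 in the Cd79a gate and 1.04 in the Cd34-Adgrl4 gate, and at 0.888 in the Retnlg gate. Its Cd34-Adgrl4 value ran from 0.988 to 1.05 under the alternatives, on both sides of 1. Axin1 was at 1.64 in the Siglech gate, from 26 UMIs in IR and 58 in IR+CBD, and at 0.948 and 0.816 in the Mpo and Retnlg gates.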

How the results depend on the processing

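Over all cells, Lrp6 stayed below 1 in IR over Control (0.853 to 0.924) and above 1 in IR+CBD over IR (1.04 to 1.06) under every alternative tried. The lowest value, 0.853, came with the deepest 8% of cells removed. In the Cd34-Adgrl4 gate, Lrp6 in IR over Control was 0.957 with cells in 2 or more gates removed, 0.801 with the deepest 8% of cells removed, 0.816 with gates set per 10000 UMIs of a cell and 0.801 as the mean of each cell's CPM. There, Lrp6 in IR+CBD over IR turned to 0.918 with cells in 2 or more gates removed and to 0.941 in cells with a UMI of Hlf and of Mecom, a set added after the data were seen. The count of members past the size limit in IR over Control over all cells moved from 0 to 1 with cells in 2 or more gates removed. Within the Cd34-Adgrl4 gate it moved from 0 to 2 in cells with under 5 Mpo UMIs, and to 1 in IR+CBD over IR, and in the Retnlg gate it lay, at the same size limit, between 1 and 4 in IR over Control and between 0 and 2 in IR+CBD over IR. The shares of all genes past the limit under these alternatives were not determined, so these counts are not read as a trait of the members. Over all cells, Lrp5 (0.758 to 1.02), Ctnnb1 (0.933 to 1.01) and Ppm1b (0.918 to 1.04) in IR over Control, and Apc (0.964 to 1.02), Axin1 (0.981 to 1.00) and Lrp5 (0.999 to 1.11) in IR+CBD over IR, fell on both sides of 1. The causes were not tested.

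Of 1280 recomputed CPM ratios, 1133 stayed within the interval of the reported value and 147 left it. Median-ratio scaling left 130 of 140 ratios within their intervals. Of 42 thinned shares, 42 left their interval without thinning and 39 at 5000 UMIs. All ratios rest on 1 library per group, so the spread between mice and between library preparations cannot be told apart from the treatments. No paired analysis was possible because each group is 1 library and the labels carry no replicate numbers.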
